A study of Mus musculus with 48 samples.

Results

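The effect of hM4Di in the striatum of R6/2 mice was followed through 1 quantity per gene and mouse. This was the log2 ratio of the level in an astrocyte precipitate (IP) to that in whole striatal lysate (input) of the same animal. The question was which genes moved more in one fraction than in the other, and the comparison used 16 of the 48 libraries of the series, from 8 of 24 adult mice of strain C57. Members were chosen by their labels: 4 R6/2 mice given hM4Di (numbered 1 to 4) and 4 R6/2 mice given control cargo (numbered 1 to 4), with an IP and an input library from each. R6/2 mice carry the first exon of the human huntingtin gene with an expanded CAG repeat and are used as a model of Huntington's disease. Both groups carry that transgene, so no mouse without it entered the comparison. All 8 mice also received a RiboTag virus (an adeno-associated virus that makes astrocytes produce the ribosomal protein Rpl22 with a haemagglutinin tag) 3 weeks before RNA extraction. The labels for these mice do not name the promoter of the hM4Di or control construct, the content of the control cargo, or whether and when an agonist of hM4Di was injected. The effect of the construct and that of any agonist treatment that went with it cannot be told apart here.

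hM4Di is a designer receptor made from the human M4 muscarinic receptor, which couples to inhibitory Gi proteins and answers to a synthetic agonist in place of acetylcholine. In astrocytes, signalling through Gi-coupled receptors is known to raise intracellular calcium, unlike in neurons, where it lowers excitability. In RiboTag samples the input holds RNA from all cells of the tissue, and the precipitate is weighted towards the ribosome-bound RNA of the cells that make the tagged protein. When all astrocytes carry the tag and change alike, a transcript made by astrocytes alone changes by the same factor in both fractions. Its ratio then stays put. The share of astrocytes with the tag was not tested, and tagged astrocytes that change unlike the others also move the ratio. The ratio moves for transcripts shared with other cell types when one of the cell types changes them, and for transcripts whose recovery in the precipitate changes. In such bulk samples, fewer cells of a type and less RNA per cell cannot be told apart, and neither can a change in what the precipitate recovers.

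The precipitates matched their label for astrocyte and microglia markers and departed from it for some other cell types. Library totals were 46029689 to 54492373 counted reads in IP and 21901847 to 28012028 in input. All 29 astrocyte markers had been enriched over 2-fold in precipitates of 8 other, non-R6/2 mice of the series (vehicle-treated mice and wild-type littermates), and their median log2 ratio was 2.30 to 2.35 in hM4Di mice and 2.26 to 2.36 in control cargo mice. Microglia markers were strongly depleted from the precipitate, with median log2 ratios of -5.11 to -4.95 in hM4Di mice and -5.03 to -4.58 in control cargo mice. Against the label, markers of striatal interneurons such as Chat and Nos1 were also high in the precipitate, with median log2 ratios of 1.51 to 1.99 in hM4Di mice and 1.41 to 1.79 in control cargo mice. None of the 13 interneuron markers had a called difference in ratio between the groups. Ependymal and choroid plexus markers were high as well, at 1.01 to 2.27 in hM4Di mice and 1.62 to 2.10 in control cargo mice. Pan-neuronal markers were not depleted, with medians of -0.097 to 0.066 in hM4Di mice and 0.073 to 0.21 in control cargo mice. The precipitate thus also held RNA of cells other than astrocytes.

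Chrm4, the mouse gene for the M4 receptor and the gene on which reads of the construct would be counted, checked the labels. It had 911, 597, 891 and 858 CPM (read counts scaled to a common library size) in the IP of hM4Di mice 1 to 4, against 51.97, 39.7, 45.8 and 69.8 CPM in control cargo mice 1 to 4. In input the values were 447, 331, 511 and 470.02 CPM in hM4Di mice, against 49.9, 42.8, 45.1 and 61.7 CPM in control cargo mice. Every hM4Di library was far above every control cargo library of its fraction, and reads of the construct and of the mouse gene were counted as 1. The log2 IP-to-input ratio of Chrm4 was 1.03, 0.85, 0.80 and 0.87 in hM4Di mice 1 to 4. Astrocyte markers had medians of 2.30 to 2.35 in the same mice. In control cargo mice 1 to 4 the Chrm4 ratio was 0.060, -0.11, 0.022 and 0.18. Which cells carried the construct was not tested. Rpl22, the gene of the tagged protein, went the other way: IP held 287, 247, 314 and 284 CPM in hM4Di mice, against 604, 309, 638 and 693 CPM in control cargo mice. Control cargo mouse 2 lay within the range of the hM4Di mice in Rpl22, and the other control cargo mice lay well above it. The log2 IP-to-input ratio of Rpl22 was lower by 0.64 on the log2 scale (SE 0.13, adjusted p = 0.00363, edgeR), and its per-mouse ratios overlapped at control cargo mouse 2. Tagged and native Rpl22 were counted as 1, and the part of this difference in the other results was not tested; the values of control cargo mouse 2 are given where they bear on it.

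Of 15880 genes tested, 2761 differed between the groups in their IP-to-input ratio at an adjusted p below 0.05 (17.4% called; edgeR quasi-likelihood test of the interaction, with each mouse as a block and Benjamini-Hochberg adjustment over all genes tested). The ratio was higher in hM4Di mice for 1327 genes (8.36% called) and lower for 1434 (9.03% called). Counts of called members of every list below are to be read against these shares. Most shifts were small: the median absolute shift of the called genes was 0.31 on the log2 scale, and 142 called genes were higher by over 2-fold while 13 were lower by over 2-fold. Per-mouse ratios of the groups did not overlap for 3297 of the tested genes (20.8%), and for 2384 of the 2761 called genes. Without the mouse as a block, 492 genes were called, all of them among the 2761, and with hM4Di mice 2 and 3 left out 1353 genes were called.

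The shifts came mostly from the precipitate. Taken alone, the IP libraries had 1374 genes higher (9.06% called) and 853 lower (5.63% called) in hM4Di mice of 15159 tested, whereas the input libraries had 3 called genes of 15168 tested (0.0198% called), namely Chrm4, Gem and Cyr61. Among genes with a called shift and a value in both fractions, the effect was larger in IP for 2635 of 2747 and larger in input for 112. Of the genes with a higher ratio, 900 were called in IP and not in input, 424 in neither fraction and 3 in both. Of those with a lower ratio, 659 were called in IP and not in input and 775 in neither. No gene with a called shift was called in input and not in IP. Without hM4Di mice 2 and 3 the IP libraries gave 464 calls, and without control cargo mouse 1 they gave 892. In input, 1163 genes had an unadjusted p below 0.05, and DESeq2 called 53 genes.

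**Figure D1:**
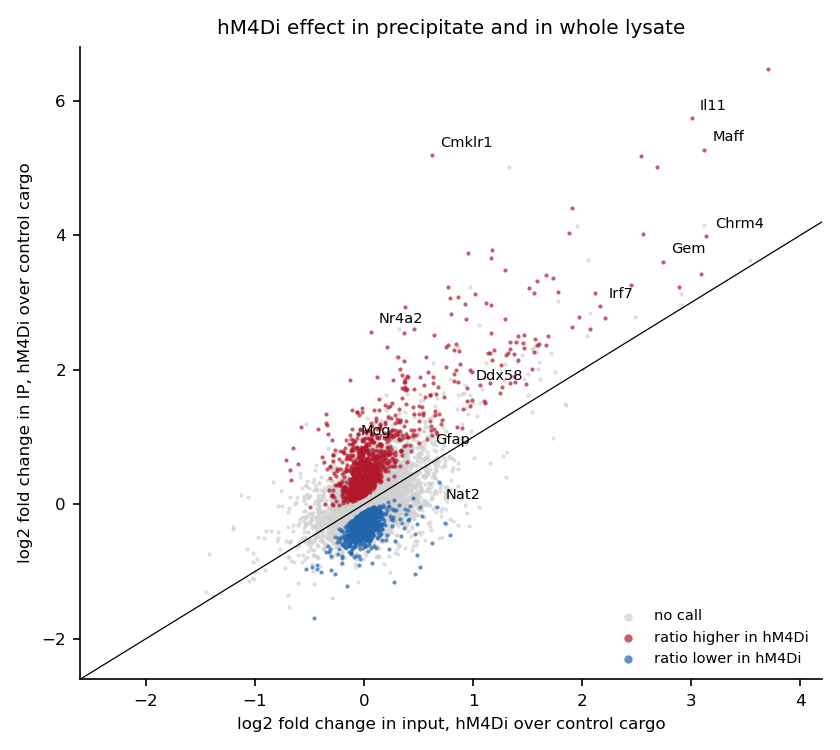
Log2 fold change of hM4Di over control cargo in the input libraries (x axis) and in the IP libraries (y axis), 1 point per gene tested in both fractions, coloured by the call on the IP-to-input ratio. Points on the line changed equally in both fractions; Cmklr1 and Nr4a2 lie far above it with input changes of 0.63 and 0.06, Gfap lies near it, and Nat2 lies below it.

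Among called genes averaging at least 1 on the log2 CPM scale whose groups did not overlap, the largest rise in ratio was that of Cmklr1 (chromosome 5, 113612354 to 113650426, GRCm38), the receptor of the chemoattractant chemerin, which is known in the brain mainly from microglia. Its IP held 4.82, 3.39, 14.5 and 9.03 CPM in hM4Di mice 1 to 4, against 0.188, 0.138, 0.209 and 0.327 CPM in control cargo mice 1 to 4. Input held 3.61, 3.45, 5.46 and 4.17 CPM in hM4Di mice, against 2.91, 2.66, 2.95 and 2.27 CPM in control cargo mice. The IP of control cargo mice thus held 6 to 14 reads of this gene per library, and that of hM4Di mice 146 to 657. Input levels were also higher in every hM4Di mouse, by far less, and were not called (adjusted p = 0.448). The log2 ratio was 0.42, -0.026, 1.41 and 1.11 in hM4Di mice and -3.86, -4.14, -3.73 and -2.74 in control cargo mice, a shift of 4.43 ± 0.38 (SE, here and below; adjusted p = 4.38e-06). In precipitates of the 8 non-R6/2 mice Cmklr1 was depleted with a log2 ratio of -3.50, as microglia markers were. The 17 microglia markers themselves had no called shift, and their summed IP level was 67.03 to 78.8 CPM in hM4Di mice and 62.3 to 70.1 CPM in control cargo mice. Their summed input level was 700.1, 819, 884 and 749 CPM in hM4Di mice 1 to 4, against 682, 633, 673 and 602 CPM in control cargo mice 1 to 4, so that every hM4Di mouse lay above every control cargo mouse. The part of this difference in the Cmklr1 result was not tested.

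Immediate early genes, transcription factors that cells switch on within minutes of a stimulus and relatives, had a higher ratio in 16 of 25 tested and a lower one in 3, with a median shift of 0.76 against a median over all tested genes of -0.0070. The median log2 fold change of the list was 1.82 in IP and 0.67 in input, and none was called in input. The median log2 ratio of the list was 1.28, 0.68, 1.45 and 0.71 in hM4Di mice 1 to 4 and -0.16, -0.35, -0.20 and -0.19 in control cargo mice 1 to 4, so the groups did not overlap. The 3 with a lower ratio were Egr3 (-0.42 ± 0.087), Egr4 (-0.44 ± 0.13) and Ier5 (-0.30 ± 0.08), named after their values were seen. Without the mouse as a block 3 of the 16 stayed called, without hM4Di mice 2 and 3 there were 13, and without control cargo mouse 1 there were 11.

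The orphan nuclear receptors Nr4a1, Nr4a2 and Nr4a3, targets of calcium and cAMP signalling, were among them. Nr4a2 had 13.3, 12.98, 19.9 and 12.9 CPM in the IP of hM4Di mice, against 2.204, 1.96, 2.83 and 3.04 CPM in that of control cargo mice. In input it had 4.41, 7.35, 7.28 and 3.18 CPM in hM4Di mice, against 4.09, 5.24, 6.07 and 5.93 CPM in control cargo mice. IP separated the groups completely and input did not separate them, and the shift was 2.52 ± 0.21 (adjusted p = 3.88e-06). Nr4a1 had IP levels of 70.97, 122, 67.9 and 52.6 CPM in hM4Di mice, against 8.88, 10.7, 9.82 and 10.01 CPM in control cargo mice, and input levels of 16.5, 77.5, 16.4 and 19.98 CPM in hM4Di mice, against 11.5, 18.1, 18.3 and 11.6 CPM in control cargo mice. hM4Di mouse 2 was high in both fractions and the other hM4Di mice were high in IP and near the control cargo range in input, which left a shift of 2.08 ± 0.28 (adjusted p = 1.70e-04). Nr4a3 shifted by 2.57 ± 0.37 (adjusted p = 3.36e-04), with log2 ratios of 2.54, 1.19, 3.12 and 2.30 in hM4Di mice and 0.27, -0.25, -0.42 and -0.59 in control cargo mice.

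The promoters of the Nr4a genes are printed because all of them rose together in ratio; capitals mark TGACG and its reverse complement CGTCA, the core of the cAMP response element TGACGTCA (which holds both, overlapping). Sequences are from RefSeq (GRCm38.p6), 5′ to 3′ on the gene's strand, from 250 bases before to 50 after a transcription start. Nr4a1 is at chr15:101266596-101266895 (plus strand), Nr4a2 at chr2:57123954-57124253 (minus strand) and Nr4a3 at chr4:48045055-48045354 (plus strand).
Nr4a1: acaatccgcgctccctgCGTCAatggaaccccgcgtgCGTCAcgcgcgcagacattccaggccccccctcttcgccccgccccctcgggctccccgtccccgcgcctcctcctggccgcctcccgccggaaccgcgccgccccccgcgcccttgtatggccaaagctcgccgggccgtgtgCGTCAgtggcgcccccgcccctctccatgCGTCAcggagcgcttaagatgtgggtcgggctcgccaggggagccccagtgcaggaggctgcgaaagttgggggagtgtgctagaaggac
Nr4a2: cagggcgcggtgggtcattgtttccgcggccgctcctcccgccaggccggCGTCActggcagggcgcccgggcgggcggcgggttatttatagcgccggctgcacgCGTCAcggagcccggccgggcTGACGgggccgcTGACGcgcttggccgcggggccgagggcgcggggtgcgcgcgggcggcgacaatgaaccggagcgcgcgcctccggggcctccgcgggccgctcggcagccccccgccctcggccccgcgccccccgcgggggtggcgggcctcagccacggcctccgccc
Nr4a3: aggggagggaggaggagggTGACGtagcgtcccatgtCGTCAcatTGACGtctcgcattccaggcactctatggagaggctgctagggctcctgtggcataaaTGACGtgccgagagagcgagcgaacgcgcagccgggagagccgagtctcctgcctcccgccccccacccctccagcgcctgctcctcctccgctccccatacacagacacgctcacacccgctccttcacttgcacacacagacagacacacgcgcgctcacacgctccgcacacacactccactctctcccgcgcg
Each of these windows held 4 matches to this core, counting both strands. A count of 4 or more was found in 63 of 11628 tested genes with a RefSeq promoter (0.542%). Among genes with a called higher ratio it was found in 9 of 1009 (0.892%). The cut of 4 was taken from these same windows, so these shares are a description and no test. At least 1 match stood in the promoters of 13 of the 20 immediate early genes that had one (65.0%), against 33.3% of all tested genes with one. The list was made of immediate early genes, so this share does not bear on the shift. Genes with a called higher ratio (34.3%) and those higher by over 2-fold (31.9%) were near the share of all tested genes. None of the Nr4a windows held the full element TGACGTCA. A match describes the letters alone.

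Some other members of the list encode Fos and Jun proteins, which build the dimeric factor AP-1, or the related small Maf protein Maff. Maff had 26.2, 31, 98.5 and 26.4 CPM in the IP of hM4Di mice, against 0.821, 1.01, 0.963 and 1.94 CPM in that of control cargo mice, and 2.8002, 3.64, 11.3 and 3.14 CPM in the input of hM4Di mice, against 0.574, 0.416, 0.591 and 0.824 CPM in that of control cargo mice. Both fractions separated the groups, IP by more, and the shift was 2.18 ± 0.20 (adjusted p = 9.44e-06). Fosl2 shifted by 2.25 ± 0.24, with IP levels of 101.03, 111, 137 and 81.7 CPM in hM4Di mice, against 11.04, 13.7, 11.99 and 37.8 CPM in control cargo mice. Klf4, a zinc-finger factor, shifted by 1.83 ± 0.25 and Egr2 by 1.99 ± 0.55. Egr2 lost its call without control cargo mouse 1, 2 or 4, and Klf4, like Cnn2 and Nr4a2, belonged to the genes depleted from healthy precipitates (log2 ratio -1.11). Jun shifted by 0.76 ± 0.11. Gem, a small GTPase of the RGK family and one of the 3 genes called in input, rose by 3.61 in IP and 2.74 in input on the log2 scale, so that its shift was a modest 0.86 ± 0.16 (adjusted p = 0.00164).

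Of 22 tested targets of SRF and YAP, factors that answer to actin dynamics and cell tension, 13 had a higher ratio and 1 a lower one (median shift 0.56). The median log2 ratio of the list was 1.10, 0.94, 1.30 and 0.86 in hM4Di mice 1 to 4 and 0.41, 0.52, 0.42 and 0.45 in control cargo mice 1 to 4. Cnn2, the actin-binding protein calponin 2, had 12.3, 10.9, 14.97 and 11.3 CPM in the IP of hM4Di mice, against 1.69, 0.99, 1.63 and 2.199 CPM in that of control cargo mice. In input it had 5.6004, 6.098, 7.18 and 7.27 CPM in hM4Di mice, against 4.81, 4.61, 3.77 and 7.01 CPM in control cargo mice. The IP of hM4Di mice was several times that of control cargo mice while the input ranges overlapped, with a shift of 2.54 ± 0.18 (adjusted p = 1.20e-06). Cnn2 was depleted from healthy precipitates (log2 ratio -2.01). Tagln and Tpm4, which also bind actin filaments, shifted by 1.74 ± 0.23 and 1.35 ± 0.16, and Srf itself by 0.77 ± 0.095. Amotl2 and Cnn3 shifted by 0.59 ± 0.067 and 0.47 ± 0.064. The gene with a lower ratio was Tpm1 (-0.21 ± 0.063), named after its value was seen. Without the mouse as a block 5 of the 13 stayed called, and without hM4Di mice 2 and 3 there were 12, with a median shift of 0.34.

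The CArG box, the element that SRF binds, was searched in the same promoter windows. It was present in 7 of the 17 listed genes that had one (41.2%), against 1.56% of all tested genes with one. The list was made of SRF and YAP targets, so this share does not bear on the shift. Of all genes with a called higher ratio 2.48% held the box, and of those with a lower ratio 1.58%. The promoters of Cnn2 at chr10:79988350-79988649 (plus strand) and of Srf at chr17:46556113-46556412 (minus strand) are printed as examples of a target and of the factor's own gene; capitals mark the CArG box and, in Srf, also 1 TGACG.
Cnn2: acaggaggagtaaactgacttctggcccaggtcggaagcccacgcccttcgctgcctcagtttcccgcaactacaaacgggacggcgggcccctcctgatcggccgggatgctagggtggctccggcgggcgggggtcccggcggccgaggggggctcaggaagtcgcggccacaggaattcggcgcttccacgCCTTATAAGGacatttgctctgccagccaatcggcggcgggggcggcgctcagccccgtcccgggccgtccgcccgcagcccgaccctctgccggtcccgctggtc
Srf: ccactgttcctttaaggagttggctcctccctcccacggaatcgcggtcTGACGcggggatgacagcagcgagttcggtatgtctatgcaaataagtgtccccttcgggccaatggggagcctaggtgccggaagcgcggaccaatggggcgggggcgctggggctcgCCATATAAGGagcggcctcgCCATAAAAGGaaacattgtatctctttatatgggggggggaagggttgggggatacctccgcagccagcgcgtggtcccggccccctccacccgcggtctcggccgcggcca
Both are genes of the list with a called rise; the choice of these examples was made after their values were seen.

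Cytokine genes and genes of the STAT3 pathway shifted less uniformly, with 6 of 20 higher and 2 lower. Of all tested genes 8.36% were higher and 9.03% lower, so the falls of this list were near the share of all genes. The 6 became 4 without hM4Di mice 2 and 3 and 0 without the mouse as a block. Il11, a cytokine of the interleukin 6 family, had 3.03, 5.495, 28.9 and 6.55 CPM in the IP of hM4Di mice, against 0.211, 0.23, 0.188 and 0.187 CPM in that of control cargo mice. Its input levels were 0.77, 0.947, 4.07 and 1.15 CPM in hM4Di mice, against 0.144, 0.166, 0.328 and 0.206 CPM in control cargo mice. Both fractions were higher in every hM4Di mouse than in every control cargo mouse, and hM4Di mouse 3 was the highest in each. The shift was 2.64 ± 0.44 (adjusted p = 8.13e-04), and the input of control cargo mice held 4 to 10 reads of it per library. The IP of control cargo mice was as near the floor, at 0.23 CPM or less. Il11 passed the minimum count through the hM4Di libraries, so the size of its shift is uncertain and is given as a description. Socs3, a feedback inhibitor of STAT3, shifted by 1.41 ± 0.17, Stat3 by 0.53 ± 0.086 and Osmr, the oncostatin M receptor, by 0.65 ± 0.12. The chemokines Cxcl14 and Cx3cl1 fell in ratio by 0.33 and 0.36 on the log2 scale. Klk6, a secreted serine protease, shifted by 2.01 ± 0.23, and its highest log2 ratio was that of hM4Di mouse 3 (2.33, against 1.28 to 1.41 in the other hM4Di mice). Stk40, which encodes a pseudokinase, had the smallest p of any gene outside the oligodendrocyte list, with IP levels of 49.995, 55.4, 85.8 and 59.8 CPM in hM4Di mice, against 18.1, 18.3, 20.4 and 19.6 CPM in control cargo mice, and a shift of 1.34 ± 0.081 (adjusted p = 6.42e-07).

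Interferon response genes had a higher ratio in 17 of 20 tested and a lower one in none, with a median shift of 0.71. These genes are switched on when type I interferon binds its receptor. Ddx58, a sensor of viral RNA, had 38.2, 90.8, 174 and 41.8 CPM in the IP of hM4Di mice 1 to 4, against 27.4, 22.3, 34.2 and 20.8 CPM in that of control cargo mice. In input it had 11.5, 22.4, 41.5 and 12.2 CPM in hM4Di mice, against 13.1, 10.6, 13.1 and 8.61 CPM in control cargo mice. hM4Di mice 2 and 3 stood far above the other hM4Di mice in both fractions, and hM4Di mice 1 and 4 lay above the control cargo mice in IP but within their range in input. The ratio was steadier than the level: log2 values were 1.73, 2.02, 2.07 and 1.77 in hM4Di mice, against 1.06, 1.07, 1.39 and 1.27 in control cargo mice, a shift of 0.72 ± 0.10 (adjusted p = 1.80e-04).

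**Figure D2:**
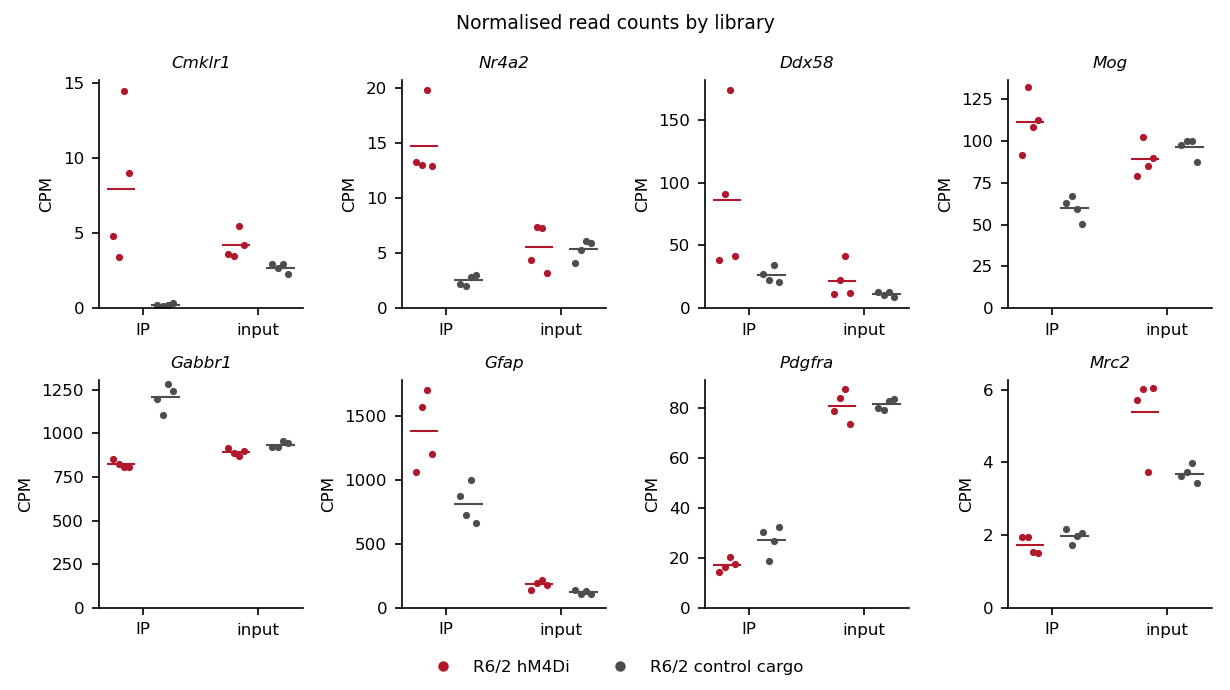
Normalised read counts (CPM, linear axes from 0) of 8 genes in the IP and input libraries of hM4Di mice and of control cargo mice; each point is 1 library and each horizontal line the mean of 4. Nr4a2 and Mog separate the groups in IP alone, and Cmklr1 far more in IP than in input. Ddx58 is high in IP and input of hM4Di mice 2 and 3. Gabbr1 is lower in hM4Di mice in IP and, by far less, in input. Mrc2 is higher in the input of 3 of the 4 hM4Di mice.

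The same split between mice held for the list. Its summed IP level was 664, 1954, 4581 and 663 CPM in hM4Di mice 1 to 4, against 325 to 571 CPM in control cargo mice. The median log2 ratio was 1.49, 1.86, 1.97 and 1.39 in hM4Di mice, against 1.13, 0.75, 1.09 and 1.04 in control cargo mice, so that hM4Di mice 1 and 4 also exceeded every control cargo mouse. With hM4Di mice 2 and 3 left out, 8 of the 20 genes were called and the median shift was 0.44, and without the mouse as a block no member was called. Irf7, a transcription factor of the response, shifted by 0.91 ± 0.16 and had log2 ratios of 0.48, 0.74, 0.15 and 0.53 in hM4Di mice, against -0.25, -0.85, -0.27 and -0.67 in control cargo mice. Ifi27 shifted by 0.49 ± 0.076 and Trim30a by 1.25 ± 0.23. Ifi44 shifted by 2.11 ± 0.39, but its groups overlapped and its call was lost without hM4Di mice 2 and 3 (adjusted p = 0.127). Gbp4 and Ifi27l2a, interferon-induced genes outside the list, were among the largest rises at 1.99 ± 0.31 and 2.42 ± 0.39. The sequence GAAA-NN-GAAA, the core of the interferon-stimulated response element, was searched on either strand. It stood in the promoters of 10 of the 15 listed genes that had one (66.7%), against 3.64% of all tested genes with one. The list was made of interferon response genes, so this share does not bear on the shift. Of all genes with a called higher ratio 5.65% held it, and of those with a lower ratio 2.86%.

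Genes of MHC class I antigen presentation had a higher ratio in 10 of 12 tested, with a median shift of 0.72. B2m, the invariant light chain, had 306, 779.6, 1087 and 206 CPM in the IP of hM4Di mice, against 118, 132, 140.1 and 98.5 CPM in that of control cargo mice. All hM4Di mice were above all control cargo mice, mice 2 and 3 by the most, and the shift was 0.92 ± 0.17 (adjusted p = 0.00153). Tap2, a peptide transporter, shifted by 0.53 ± 0.084 and Tapbp by 0.47 ± 0.11. H2-D1 and H2-T23 shifted by 0.86 ± 0.16 and 1.36 ± 0.38; class I heavy chain genes are near copies of each other, so their counts are uncertain. H2-D1 overlapped between the groups, hM4Di mouse 4 having the lowest IP level of all 8 mice, and its shift was 0.45 without hM4Di mice 2 and 3. H2-T23 lost its call in 5 of the 8 fits that left out 1 mouse and with DESeq2 (adjusted p = 0.178), and its shift was 0.22 without hM4Di mice 2 and 3 (adjusted p = 0.629). Without hM4Di mice 2 and 3, 3 of the 12 were called and the median shift was 0.36, and without the mouse as a block none was. Genes described as A1-type reactive, of which several are interferon-induced or MHC genes, were called higher in 6 of 11 and lower in 1. The count of rises was 0 without the mouse as a block, 1 without hM4Di mouse 2, without hM4Di mouse 3 or without both, 2 without control cargo mouse 3, and 3 without control cargo mouse 1 or 4.

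Reactive astrocyte genes moved in part in both fractions and in part in the ratio. Gfap, the filament protein that reactive astrocytes raise, had 1064, 1571, 1703 and 1204 CPM in the IP of hM4Di mice, against 873, 728, 998 and 661 CPM in that of control cargo mice. In input it had 141, 194, 218 and 181 CPM in hM4Di mice, against 138, 108, 133 and 112 CPM in control cargo mice. Both fractions were higher in each hM4Di mouse, the log2 fold change was 0.77 in IP (adjusted p = 0.0217) and 0.58 in input (adjusted p = 0.332), and the shift of 0.19 ± 0.073 was not called (adjusted p = 0.0987). Vim shifted by 0.38 ± 0.083 and the protease inhibitor Serpina3n by 0.88 ± 0.13, with log2 ratios of 2.24, 2.77, 2.64 and 2.85 in hM4Di mice, against 2.00, 1.83, 1.57 and 1.60 in control cargo mice. S1pr3, a sphingosine phosphate receptor, shifted by 1.36 ± 0.26. Of the 11 pan-reactive genes tested, 5 were called higher and none lower, and of the 11 genes described as A2-type reactive, 5 were called higher. The median log2 ratio of the pan-reactive list was 2.09, 2.26, 2.57 and 2.40 in hM4Di mice 1 to 4. It was 2.31, 1.45, 1.57 and 1.60 in control cargo mice 1 to 4, so the groups overlapped at control cargo mouse 1. The pan-reactive count was 3 without hM4Di mice 2 and 3. The A2-type count was 1 without those mice, 2 without hM4Di mouse 3 alone and 3 without hM4Di mouse 1 or control cargo mouse 1, 2 or 4. Neither list had a call without the mouse as a block. Emp1 of that list shifted by 1.30 ± 0.21. Thbs1, a synaptogenic thrombospondin, did not pass the test on the ratio (shift 0.81 ± 0.41, adjusted p = 0.206), and its IP levels were 14.01, 14.5, 60.1 and 7.65 CPM in hM4Di mice, against 7.27, 8.38, 5.3997 and 5.54 CPM in control cargo mice. hM4Di mouse 3 was far above the rest, and hM4Di mouse 4 lay within the range of the control cargo mice. Thbs2 and Sparc, also secreted by astrocytes, passed with shifts of 0.64 ± 0.11 and 0.45 ± 0.067.

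Genes of cholesterol synthesis and uptake had a higher ratio in 14 of 25 tested and a lower one in none (median shift 0.41). Insig1, which holds back sterol synthesis when sterols are plentiful, had 82.95, 80.4, 198 and 95.1 CPM in the IP of hM4Di mice, against 35.2, 47.3, 64.9 and 46.1 CPM in that of control cargo mice. Its input levels were 33.04, 32.5, 51.3 and 36.6 CPM in hM4Di mice, against 26.6, 29.7, 32.002 and 33.5 CPM in control cargo mice. In IP every hM4Di mouse was above every control cargo mouse, hM4Di mouse 3 by the most, while input overlapped, and the shift was 0.86 ± 0.15 (adjusted p = 9.92e-04). The synthesis enzymes shifted by 0.76 ± 0.14 for Hsd17b7, 0.64 ± 0.16 for Cyp51 and 0.45 ± 0.10 for Sqle. The per-mouse median log2 ratio of the list was 0.84, 0.92, 1.56 and 1.01 in hM4Di mice, against 0.65, 0.64, 0.82 and 0.52 in control cargo mice. The count was 10 without hM4Di mice 2 and 3, 8 without control cargo mouse 4, 9 without hM4Di mouse 4 or control cargo mouse 1 or 2, 9 with the mean microglia ratio of each mouse as a covariate and 0 without the mouse as a block. Oligodendrocytes also make cholesterol, and their markers moved in the same direction (median shift 0.83). Their part in this result was not tested. The sterol regulatory element TCACNCCAC stood in the promoter of 1 of the 16 listed genes that had one (6.25%), against 1.39% of all tested genes with one. The list was made of sterol genes, so this share does not bear on the shift.

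Oligodendrocyte markers moved together: all 14 had a higher ratio, with shifts of 0.64 to 1.16. They encode myelin proteins and enzymes of myelin lipid synthesis. The median log2 fold change was 0.85 in IP and -0.03 in input, so the change lay in the precipitate. The median log2 ratio of the list was 0.30, 0.56, 0.40 and 0.45 in hM4Di mice 1 to 4, against -0.35, -0.34, -0.51 and -0.57 in control cargo mice 1 to 4. It was 0.079 in vehicle-treated mice and 0.74 in wild-type littermates of the other experiments, as a description without a test. Mog, a myelin surface protein (chromosome 17, 37010743 to 37023398, GRCm38), had the smallest p of all genes: its IP held 91.7, 133, 108 and 113 CPM in hM4Di mice, against 62.9, 67.2, 59.02 and 50.6 CPM in control cargo mice. In input it had 79.1, 103, 85.2 and 90.2 CPM in hM4Di mice, against 97.5, 100.3, 100.1 and 87.2 CPM in control cargo mice. The IP levels separated the groups and the input levels overlapped, and the shift was 1.00 ± 0.054 (adjusted p = 2.80e-07).

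Mal, a membrane protein of myelin, had IP levels of 250.3, 349, 279.8 and 257 CPM in hM4Di mice, against 158, 192, 152 and 152 CPM in control cargo mice, with a shift of 0.81 ± 0.052. Every hM4Di mouse was above every control cargo mouse. Opalin, Ermn and Ugt8a shifted by 1.00 ± 0.075, 0.96 ± 0.073 and 0.79 ± 0.063. Outside the list, Pllp, a further myelin protein, shifted by 0.97 ± 0.067, Bcas1 by 0.68 ± 0.047 and Slain1, a microtubule-associated protein, by 0.63 ± 0.043. All 14 list members were called without the mouse as a block, with hM4Di mice 2 and 3 left out, with any single mouse left out and with the microglia ratio as a covariate. Control cargo mouse 2, the one with low Rpl22, had a list median of -0.34, the highest of its group and next to control cargo mouse 1 at -0.35.

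**Figure D3:**
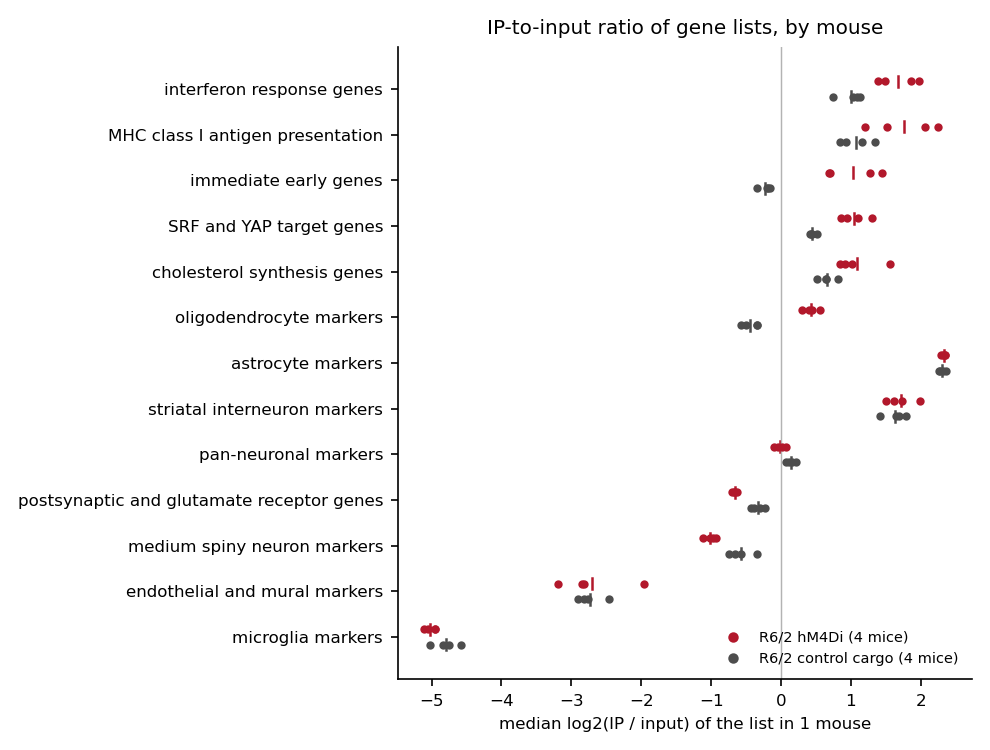
Median log2 IP-to-input ratio of 13 gene lists in each mouse (1 point per mouse, upper row hM4Di, lower row control cargo, tick at the mean of 4). Oligodendrocyte markers and immediate early genes separate the groups with higher ratios in hM4Di mice, medium spiny neuron and postsynaptic genes separate them with lower ratios, and astrocyte and interneuron markers overlap.

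Of 10 precursor and lineage markers of oligodendrocytes, 3 were higher and 3 lower. The lineage transcription factors Sox10, Olig1 and Olig2, which mature oligodendrocytes also express, shifted by 0.74 ± 0.074, 0.63 ± 0.077 and 0.67 ± 0.10. Pdgfra, the growth factor receptor that defines precursors, had 14.4, 16.2, 20.5 and 17.4 CPM in the IP of hM4Di mice, against 30.5, 18.7, 26.7 and 32.3 CPM in that of control cargo mice. Control cargo mouse 2 lay among the hM4Di mice and the other control cargo mice lay higher, and the ratio fell by 0.64 on the log2 scale (adjusted p = 0.00371). Gpr17, a marker of committed precursors, fell in ratio by 0.74 (adjusted p = 0.00414), with log2 ratios of -2.49, -2.41, -2.38 and -2.11 in hM4Di mice, against -1.18, -2.18, -1.65 and -1.44 in control cargo mice. For both genes the ratio of control cargo mouse 2, whose Rpl22 was low, lay within the range of the hM4Di mice. Without the mouse as a block Pdgfra (adjusted p = 0.069) and Gpr17 (adjusted p = 0.071) were not called, and of the 3 rises that of Sox10 stayed called.

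Medium spiny neuron markers had a lower ratio in 23 of 25 tested and a higher one in none. Medium spiny neurons are the projection neurons of the striatum and most of its neurons. The median shift was -0.48, made of a median log2 fold change of -0.46 in IP and 0.023 in input. The per-mouse median log2 ratio was -0.97, -1.02, -0.93 and -1.12 in hM4Di mice, against -0.57, -0.75, -0.66 and -0.34 in control cargo mice. The groups did not overlap, and control cargo mouse 2 was the closest to the hM4Di mice. In the non-R6/2 mice the list stood at -0.99 (vehicle) and -0.56 (wild-type littermates). Rgs9, a brake on G protein signalling, had 151, 159.7, 151 and 149 CPM in the IP of hM4Di mice, against 189, 150.3, 200.5 and 262 CPM in that of control cargo mice, and 294, 312, 273 and 282 CPM in the input of hM4Di mice, against 254, 224, 269 and 340.1 CPM in that of control cargo mice. Control cargo mouse 2 was the lowest of its group in both fractions and lay within the hM4Di range in IP. The log2 ratios, -0.96, -0.97, -0.86 and -0.92 in hM4Di mice and -0.42, -0.57, -0.42 and -0.38 in control cargo mice, did not overlap, and the ratio fell by 0.48 on the log2 scale (SE 0.048, adjusted p = 1.63e-05). The phosphodiesterase Pde10a fell in ratio by 0.51, the dopamine-regulated phosphatase inhibitor Ppp1r1b by 0.56 and the transcription factor Foxp1 by 0.48. There were 21 calls without hM4Di mice 2 and 3, 20 to 24 with 1 mouse left out, and 3 without the mouse as a block.

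Postsynaptic and glutamate receptor genes fell likewise in 19 of 26 tested, with a median shift of -0.29 and none higher. Camk2a, the calcium-dependent kinase of synapses, fell in ratio by 0.45 (adjusted p = 5.58e-05), with log2 ratios of -0.64, -0.67, -0.68 and -0.70 in hM4Di mice, against -0.14, -0.33, -0.30 and -0.13 in control cargo mice. The NMDA receptor subunits Grin2b, Grin2a and Grin1 fell by 0.45, 0.40 and 0.36. Without the mouse as a block 6 of the 19 stayed called. Pan-neuronal genes fell in 7 of 12, among them Rbfox3 by 0.40 and Eno2 by 0.31; the count was 3 without hM4Di mice 2 and 3 and 0 without the block. Cortical excitatory neuron markers had no called member of 8.

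The smallest p among all falls was that of Gabbr1, a subunit of the GABA-B receptor, which astrocytes and neurons both express. Its IP held 853, 827, 810.2 and 808 CPM in hM4Di mice, against 1197, 1107, 1283 and 1242 CPM in control cargo mice, and its input 915, 887, 872 and 897 CPM in hM4Di mice, against 923, 922, 956 and 944 CPM in control cargo mice. The IP of all hM4Di mice was below that of all control cargo mice, including control cargo mouse 2. Input was also lower in every hM4Di mouse than in every control cargo mouse, by far less. The ratio fell by 0.48 (SE 0.046, adjusted p = 1.24e-05). The T-type calcium channel genes Cacna1i and Cacna1h fell by 0.50 and 0.42, the ephrin receptor Epha7 by 0.40 and the G protein regulator Rgs4 by 0.50. Of 37 genes of Gi and cAMP signalling tested, 10 were lower and 3 higher, against 9.03% lower and 8.36% higher of all tested genes. Pde10a is also on the list of medium spiny neuron markers, so the 2 results are not separate. The lower ones included Rgs4, Pde10a, Pde7b (-0.48 ± 0.062), Rgs8 (-0.31 ± 0.045) and Adcy1 (-0.28 ± 0.039), and the higher ones Pde8a (0.70 ± 0.09), a phosphodiesterase of cAMP, Crem (0.84 ± 0.18), a transcription factor that answers to cAMP, and Gnai3 (0.20 ± 0.049), a Gi subunit. Crem and Gnai3 were named after their values were seen. None of the 10 stayed called without the mouse as a block.

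The 12 largest falls, among called genes averaging at least 1 on the log2 CPM scale whose groups did not overlap, were mostly of genes at low levels and reached 0.77 on the log2 scale. Txnip, a thioredoxin-binding protein that follows glucose, fell in ratio by 0.77 (adjusted p = 0.00281): IP held 22.5, 31.4, 19.3 and 13.1 CPM in hM4Di mice, against 34.5, 36.1, 29.8 and 33.3 CPM in control cargo mice, and input 24.4, 25.1, 21.9 and 20.9 CPM in hM4Di mice, against 22.3, 20.2, 21.99 and 21.8 CPM in control cargo mice. In IP, 3 of the 4 hM4Di mice were below every control cargo mouse and hM4Di mouse 2 lay within their range, while input overlapped. Hes5, a Notch target, fell by 0.71 (adjusted p = 0.007), with IP levels of 15.1, 12.1, 6.999 and 16.1 CPM in hM4Di mice, against 26.98, 19.8, 21.3 and 24.2 CPM in control cargo mice. Top2a, which acts in dividing cells, fell by 0.75, the potassium channel subunit Kcng1 by 0.72, Rem2, an RGK GTPase like Gem, by 0.65 and Cd4 by 0.65. Arg2, Casq2 and Morc2b fell by 0.73, 0.65 and 0.72. Arg2 lost its call without hM4Di mouse 2, and Casq2 without hM4Di mouse 2 or control cargo mouse 3. Of 17 cell division genes, 3 were lower and 2 higher, against 9.03% lower and 8.36% higher of all tested genes. No result about this list is drawn from these counts. The 2 rises were those of the cyclins Ccnd1 (0.71 ± 0.18) and Ccnd2 (0.39 ± 0.061). None of the 3 falls was called without hM4Di mice 2 and 3. Clock genes were lower in 6 of 16, among them Nr1d1 by 0.49 and Hlf by 0.43, and higher in 2, among them Per1 by 0.45 ± 0.09; 1 of the 6 stayed called without the mouse as a block.

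**Figure D4:**
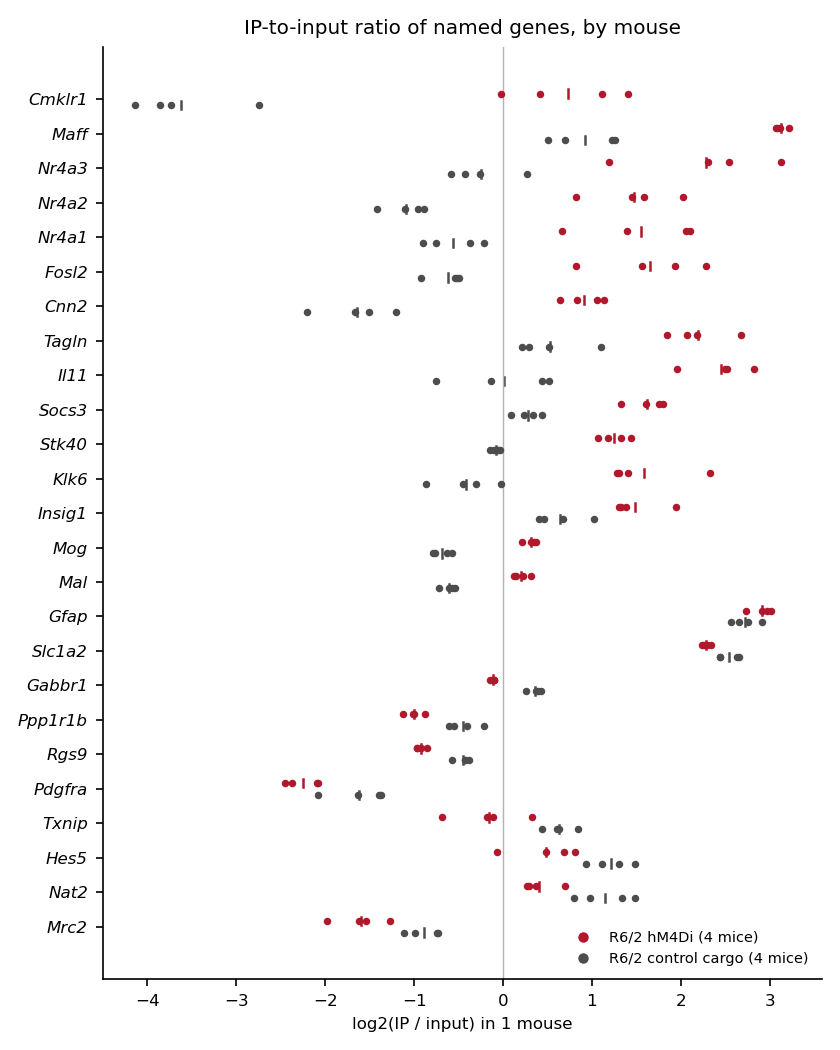
Log2 IP-to-input ratio of 25 genes in each mouse (1 point per mouse, upper row hM4Di, lower row control cargo, tick at the mean of 4). From Cmklr1 to Mal the hM4Di mice lie right of the control cargo mice without overlap, Gfap and Pdgfra overlap, and the remaining 8 genes, from Slc1a2 to Mrc2, lie to the left in hM4Di mice without overlap.

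Of 29 astrocyte markers, 2 had a higher ratio, 3 a lower one and 24 were not called, a share near the 17.4% called over all tested genes, and the median shift was -0.0056. The falls were Slc1a2, Glul and Fjx1, of which 1 stayed called without hM4Di mice 2 and 3. Slc1a2, the main glutamate transporter, had 11698, 11661, 11232 and 10686 CPM in the IP of hM4Di mice, against 15091, 15216, 16279.5 and 15029.7 CPM in that of control cargo mice, and 2376, 2429.8, 2388 and 2108 CPM in the input of hM4Di mice, against 2439, 2794, 2582 and 2759.5 CPM in that of control cargo mice. Its IP levels separated the groups and its ratio fell by 0.26 (adjusted p = 0.0093), a call lost with DESeq2 (adjusted p = 0.330) and without the mouse as a block (adjusted p = 0.0837). Glul, glutamine synthetase, fell in ratio by 0.20 (adjusted p = 0.02), and its call was lost without hM4Di mouse 3 or control cargo mouse 1. Without hM4Di mice 2 and 3, Slc1a2 had an adjusted p of 0.0945 and Glul one of 0.145. Itih3 and Ppp1r3c were the rises, by 0.37 ± 0.056 and 0.22 ± 0.052. Slc1a3, Kcnj10 and Aldh1l1 had shifts of -0.062 ± 0.047, 0.10 ± 0.069 and 0.024 ± 0.051, none called. Of 19 transmitter and ion homeostasis genes 4 were lower, Slc1a2 and Glul among them (1 without hM4Di mouse 3), and 1 was higher, the glycine transporter Slc6a9 (0.34 ± 0.048).

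The other side of the comparison, genes whose larger effect lay in input, held 112 of the 2747 called genes with both values, none of them called in input alone. Examples among the largest falls in ratio were Mrc2, Nat2 and Neu2. Mrc2, an endocytic collagen receptor, had input levels of 5.71, 6.02, 3.74 and 6.04 CPM in hM4Di mice, against 3.63, 3.74, 3.97 and 3.42 CPM in control cargo mice, and IP levels of 1.95, 1.95, 1.55 and 1.52 CPM in hM4Di mice, against 2.16, 1.73, 1.99 and 2.06 CPM in control cargo mice. In input, 3 of the 4 hM4Di mice were above all control cargo mice, and the log2 fold change of 0.54 in input had an adjusted p of 0.483. Its ratio fell by 0.72 (adjusted p = 0.0164), a call lost without control cargo mouse 1. Nat2, an acetyltransferase, fell in ratio by 0.73 with a log2 fold change of -0.046 in IP and 0.67 in input, and Neu2, a sialidase, by 0.73 with -0.35 in IP and 0.37 in input. Nat2 lost its call without hM4Di mouse 1, 3 or 4 or control cargo mouse 2 or 4. All of these genes stood at low levels in every library.

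The shifts were spread unevenly over genes classed by their healthy enrichment, a class taken from mice that did not enter the comparison. Of 1840 genes enriched over 2-fold in healthy precipitates, 17.2% had a higher ratio in hM4Di mice and 2.39% a lower one. Of 11793 genes neither enriched nor depleted, 8.24% were higher and 10.3% lower. Of 1948 genes depleted over 2-fold, 37 (1.90%) were higher and 170 (8.73%) lower. Among genes called in the IP libraries, the ratio was also called for 260 of 486 enriched genes (53.5%), 1232 of 1639 in between (75.2%) and 68 of 94 depleted genes (72.3%). The median size of the IP change was 0.55 on the log2 scale for the enriched genes, and input moved in the same direction by a median of 0.19. For the genes in between, these medians were 0.33 in IP and 0.033 in input. Cmklr1, Cnn2, Nr4a2 and Klf4 were among the 37 depleted genes with a higher ratio.

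Of 2225 genes called in IP and tested for the ratio, 663 had no called shift. Gfap was one, and Nphs1, which encodes the adhesion protein nephrin, another: it had a log2 fold change of -1.11 in IP and -1.01 in input and a shift of -0.12 ± 0.26 (adjusted p = 0.823). Cyr61, a secreted matricellular protein and a YAP target, was called in both fractions, with 2.76 in IP, 2.21 in input and a shift of 0.54 ± 0.095 (adjusted p = 0.00126). Nphs1 and Cyr61 were named after their values were seen.

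Genes of the unfolded protein and integrated stress response were higher in 6 of 18 and lower in none, among them the transcription factor Atf4 by 0.46 ± 0.11 and Edem1, which clears misfolded proteins, by 0.52 ± 0.10; 3 were called without hM4Di mice 2 and 3 and 1 without the mouse as a block. ERK feedback genes were higher in 6 of 19 and lower in 1, with Spry4 at 0.67 ± 0.13 and Spry1 at 0.58 ± 0.14, both inhibitors of growth factor signalling; 3 were called without hM4Di mice 2 and 3 and 2 without the block. Of 12 heat shock chaperone genes 1 was higher and 1 lower, near the shares of all tested genes. The co-chaperone Bag3 rose by 1.02 ± 0.13 and Hsph1 fell by 0.21 on the log2 scale. Cytosolic ribosomal protein genes were higher in 5 of 32 (Rps4x by 0.23 ± 0.062), while Rpl22 was lower. The count of 5 became 2 without hM4Di mouse 3 or control cargo mouse 1, 3 without control cargo mouse 2, 8 without control cargo mouse 3 or with the microglia ratio as a covariate, and 1 without hM4Di mice 2 and 3 or without the mouse as a block. Rps4x lost its call in 4 of the 8 fits that left out 1 mouse. Respiratory chain genes were higher in 3 of 33 (0 to 2 with any single mouse left out) and lower in 1, and glucocorticoid response genes were higher in 2 of 15 and lower in 1. Complement genes were higher in 2 of 12, in 1 without control cargo mouse 3, and in none without hM4Di mouse 2 or 3, without both, or without control cargo mouse 1 or 4. Secreted and adhesion genes of synapse formation were higher in 5 of 18 (2 without hM4Di mouse 3) and lower in 4, the neuroligins Nlgn1, Nlgn2 and Nlgn3 by 0.20, 0.17 and 0.26 and the phagocytic receptor Mertk by 0.28. Matrix genes were lower in 3 of 24, among them the laminin chain Lamb1 by 0.53 and the collagen Col4a2 by 0.31, and higher in 1. Of 17 endothelial and mural markers, Pdgfrb, a receptor of pericytes, was called and fell by 0.46 (adjusted p = 2.65e-04). All counts of this paragraph are to be read against the 8.36% higher and 9.03% lower of all tested genes. No result is drawn from the counts of the heat shock, respiratory, glucocorticoid, complement, matrix or endothelial and mural lists. Ependymal and choroid plexus markers had no called member of 10. Without the mouse as a block, no rise was called in the heat shock, complement, respiratory or synapse formation lists, and no fall in the matrix or transmitter lists.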

How the data were processed

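RNA from striatal lysate (input) and from the haemagglutinin-tagged ribosomes precipitated out of it (IP) was sequenced, per the labels, with stranded libraries after ribosomal RNA removal. The deposited table holds raw read counts for 24060 gene symbols; the authors used STAR, HTSeq and mm10, per the submitters' processing notes, with versions and strand setting not given in the sources used here. A normalised table of the series was not used.

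Counts were scaled by TMM and tested with edgeR 4.0.16 (R 4.3.3, quasi-likelihood, Benjamini-Hochberg adjustment over all genes tested, threshold 0.05) after filtering at a minimum count of 10. The shift is the interaction of fraction and hM4Di over 16 libraries with each mouse as a block; IP and input were also tested alone on 8 libraries each. IP and input of 1 mouse pair by animal, and their deviations correlated with r = 0.378 to 0.606. Healthy enrichment (over 2-fold) came from 8 other mice. Per-mouse log2 ratios used a prior count of 0.5, and the CPM values printed used none. Depth was 46029689 to 54492373 reads in IP and 21901847 to 28012028 in input, so low genes are less precise in input. No 2 libraries of a group agreed within sampling noise. Named genes were the 12 largest rises and falls and the 6 smallest p in each direction among called, non-overlapping genes, up to 6 per list by p, and a few always-named genes. A few genes are not reported here. Members and lists were chosen with earlier results of these data known. The fit was tested on simulated data. Alternatives used DESeq2 1.42.0, limma 3.58.1, other scalings and filters, no block, a microglia covariate and left-out mice.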

Additional observations from a re-analysis of the deposited data

Results flagged for a closer look

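The hM4Di effect differed between IP and input for 2761 genes, by the test of the interaction itself. In 314 groups of 4 mice examined (each gene named here and each list, in hM4Di and in control cargo mice), 12 had 1 mouse far from the other 3. Chance alone flags about 1 in 20 such groups.

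Among hM4Di mice, mouse 3 stood apart with a log2 IP-to-input ratio of 2.33 for Klk6, 1.72 for Stat3, 1.95 for Insig1, 1.56 for Sqle and 1.95 for Glul. It was above the other hM4Di mice in the first 4 of these genes and below them in Glul. hM4Di mouse 2 had the lowest Ccnd1 ratio at 1.26, and hM4Di mouse 4 the lowest Gabbr1 ratio at -0.151.

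Among control cargo mice, mouse 2 stood apart with ratios of 1.63 for Rpl22 and -0.927 for Fosl2, the lowest of its group, and 0.453 for H2-T23, the highest. Control cargo mouse 4 had the highest Epha7 ratio at -0.065, and control cargo mouse 1 the highest median ratio of the pan-reactive astrocyte genes at 2.31.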

How the results depend on the processing

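The count of 2761 shifts (1327 higher, 1434 lower in hM4Di mice) stayed within 1.5 times under every other scaling, filter, tool and covariate, at 2307 to 2923, and with a replicate block across conditions added it was 2591. No replicate block at all, which ignores that IP and input came from 1 mouse, gave 492 (302 higher, 190 lower), all among the 2761. Leaving out hM4Di mice 2 and 3 gave 1353 (689 higher, 664 lower), of which 1302 were shared. With 1 mouse left out the counts were 2024 to 2592 (983 to 1250 higher, 1027 to 1405 lower). The IP effect gave 2227 calls, 3491 with DESeq2, 464 without hM4Di mice 2 and 3 (added after seeing the data), 1601 with mouse number as a replicate block, and 892 to 2130 with 1 mouse left out; it was 1084 without hM4Di mouse 2 and 1409 without control cargo mouse 4. The input effect gave 3 calls, 53 with DESeq2, 5 with no filter beyond 1 read, 5 without hM4Di mice 2 and 3, 6 with the replicate block, and 3 to 4 with 1 mouse left out. The median shift of ERK feedback genes ran from -0.016 without hM4Di mouse 3, a change of sign, to 0.20 without control cargo mouse 3. Of 168 named genes called, 138 kept the call with any 1 mouse left out, 131 lost it without the block and 50 without hM4Di mice 2 and 3. The causes were not tested. Same-numbered mice of the 2 conditions share only a number (r = -0.0065 to 0.020). With 4 mice a group and input libraries shallower than IP, input changes of low genes are the least detectable.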
